A study of Mus musculus with 8 samples.

Results

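Apoptosis, necroptosis and pyroptosis are carried out by a small set of proteins, and 8 of their genes were described here in sorted Paneth cells (PCs): Ripk1, Fadd, Casp8, Cflar, Ripk3, Mlkl, Casp4 and Gsdmd. They were chosen by name, as death effectors relevant to the toxicity of tumor necrosis factor (TNF), out of 55414 genes in the count table. All 8 passed the filter on low counts, together with 10707 genes in all that were tested. The rule that chose them described their levels as near 0, and the counts go against that: each gene had between 9 and 1634 reads in every library, and 6 of them lay above the median gene in level per length.

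The series holds 8 bulk RNA-seq libraries of PCs sorted by FACS from the mouse small intestine, 4 from mice given Milli-Q water and 4 from mice given 25 mM ZnSO4 in the drinking water, for 7 days in both groups. Per the labels, all mice then received TNF and were sampled after 3 h, so no library is labelled as from a mouse without TNF. The study's methods describe its sorted PCs as coming from C57BL/6J mice, and neither the labels nor the methods give the age of these mice. The comparison of zinc with water asks whether the genes differed in PCs of zinc-supplemented mice that met TNF.

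TNF binds its receptor TNFR1, which assembles a complex around the kinase RIPK1. From it, the adaptor FADD can recruit caspase-8, the initiator protease of extrinsic apoptosis, while cFLIP, the product of Cflar, is a catalytically inactive relative that restrains caspase-8. Where caspase-8 is not active, RIPK1 can engage the kinase RIPK3, which phosphorylates the pore-forming pseudokinase MLKL in necroptosis. In pyroptosis, the protease encoded by mouse Casp4, often called caspase-11, is triggered by intracellular lipopolysaccharide and cleaves gasdermin D, whose fragment opens pores in the membrane. PCs are secretory cells of the crypt base that store antimicrobial peptides, and are known to be sensitive to TNF.

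The libraries held between 10623658 and 15101627 counts, so that 3 counts, the most that an observed 0 leaves room for, stood for 0.179 to 0.369 CPM (the count of a gene scaled to library size, the usual unit of depth-normalised counts). PC products dominated all 8 libraries, with Lyz1 at 14.6 to 16.4% and Defa24 at 15.5 to 21.3% of counts. The pan-leukocyte gene Ptprc had 2 counts and the macrophage gene Adgre1 had 0 counts over all libraries. Zinc replicate 3 stood apart: its correlation with the other libraries was 0.847 to 0.903, against at least 0.954 among the other 7. In that library the mean log2 CPM of 18 tested TNF and NF-kB targets was 1.20, against 4.79 to 5.45 in the others, and that of 17 tested interferon targets was 1.44 against 2.96 to 3.93. Nfkbia, the NF-kB inhibitor that TNF induces, was at 28.6 CPM there and at 434 to 534 CPM elsewhere, and the adhesion gene Icam1 was at 0 counts there and at 87.1 to 149 CPM elsewhere. Enterocyte markers were higher in it (summed 760 CPM against 313 to 434), and the brush border genes Alpi and Anpep were at 8.63 and 357 CPM against at most 0.562 and 110 CPM. Of the 18 TNF and NF-kB targets, 17 were lowest in this library and 1, Tnfaip2, was highest. Its label gives TNF treatment as for the others, and no library labelled as without TNF was there for comparison. Whether that mouse received TNF as labelled was not tested. The name zinc replicate 3 follows that label throughout, and the comparisons of the 8 genes are given with and without it.

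The 250 bases before the start of transcription are shown for 3 of the genes, Casp4 and Ripk1, which were low in zinc replicate 3, and Fadd, which was not. They were read 5′ to 3′ on the gene's strand from the RefSeq promoter table of build GRCm38.p6, in which 7 of the 8 genes had an entry. Capitals mark matches to a motif.
Casp4, chr9:5308599-5308848, plus strand: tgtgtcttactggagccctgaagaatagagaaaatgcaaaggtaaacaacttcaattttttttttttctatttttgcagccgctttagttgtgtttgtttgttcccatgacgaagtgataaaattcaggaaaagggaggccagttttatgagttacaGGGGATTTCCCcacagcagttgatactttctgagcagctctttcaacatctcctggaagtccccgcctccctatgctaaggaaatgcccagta
Ripk1, second start site, chr13:34002624-34002873, plus strand: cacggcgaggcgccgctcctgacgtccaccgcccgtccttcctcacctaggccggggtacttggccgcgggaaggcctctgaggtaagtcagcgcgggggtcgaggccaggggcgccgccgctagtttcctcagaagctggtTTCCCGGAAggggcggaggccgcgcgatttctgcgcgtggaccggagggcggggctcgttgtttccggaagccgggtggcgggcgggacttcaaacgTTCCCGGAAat
Fadd, chr7:144582442-144582691, minus strand: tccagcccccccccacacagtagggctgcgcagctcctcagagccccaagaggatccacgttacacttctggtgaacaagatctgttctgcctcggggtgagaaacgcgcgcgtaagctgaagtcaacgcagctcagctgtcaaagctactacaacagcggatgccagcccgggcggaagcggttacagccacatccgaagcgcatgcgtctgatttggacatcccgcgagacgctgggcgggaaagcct
Both strands were searched for the kappa-B consensus bound by NF-kB, the GAS core of STAT factors (TTCNNNGAA) and the ISRE core of interferon-regulated genes (GAAA, any 2 bases and GAAA). The capitals in Casp4 are 2 overlapping kappa-B matches from -93 to -83 relative to the start, and those in Ripk1 are 2 GAS matches, at -108 to -100 and at -11 to -3. An ISRE match in Ripk1 ran from -5 to 5 across the start and is not capitalised, and Cflar had one at 7 to 16, after its start. The first Ripk1 start site, Fadd, Casp8, Ripk3 and Mlkl held none of these letters in the window. Of these genes without a match, Mlkl, Ripk3 and Casp8 were also low in zinc replicate 3. The median of the other 7 libraries was 15.6, 7.14 and 2.8 times their level there, against 3.84 times for Ripk1. Whether the matches go with low levels in that library was not tested. The search also covered a stretch after the start that is not printed, of the same length in every promoter. Of 32851 promoters searched in this way, 4.51% held the kappa-B consensus, 8.3% the GAS core and 3.44% the ISRE core.

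Levels were compared between genes as FPKM, the scaled CPM divided by the length of the canonical transcript in kilobases. Over the 7 libraries other than zinc replicate 3, Casp4 was highest at 68.3 ± 10.9 FPKM (SD, n = 7), followed by Casp8 at 21.6 ± 2.84 FPKM. Ripk1 and Gsdmd came next, both at 13.5 FPKM (± 1.38 and ± 2.26, SD), and then Ripk3 at 9.25 ± 2.22 and Cflar at 7.27 ± 0.771 FPKM. Mlkl, the executioner of necroptosis, and Fadd, the adaptor, were lowest at 2.43 ± 0.562 and 2.19 ± 0.285 FPKM. For scale, the median tested gene was at 3.61 FPKM with quartiles at 1.33 and 9.43 FPKM, and over all 8 libraries Casp4 lay at percentile 96.5 and Mlkl at percentile 36.2 of the tested genes.

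Neighbours in that order were separated in 3 places, where the higher gene led in 7 of 7 libraries and the ranges did not overlap: Casp4 over Casp8 by 3.16-fold, Casp8 over Ripk1 by 1.6-fold and Cflar over Mlkl by 2.99-fold. Ripk1 and Gsdmd, Gsdmd and Ripk3, Ripk3 and Cflar, and Mlkl and Fadd overlapped in range. The place of Casp4 depended on the length used, since with the union of all exons it fell to 16.5 FPKM over all 8 libraries, under Casp8 at 17.7 FPKM. In zinc replicate 3 the order was different, with Casp8 (7.78 FPKM), Cflar (4.09 FPKM) and Ripk1 (3.76 FPKM) above Casp4 (3.21 FPKM). Fadd stood at 2.96 FPKM there, above Gsdmd at 1.42, Ripk3 at 1.33 and Mlkl at 0.151 FPKM.

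**Figure D1:**
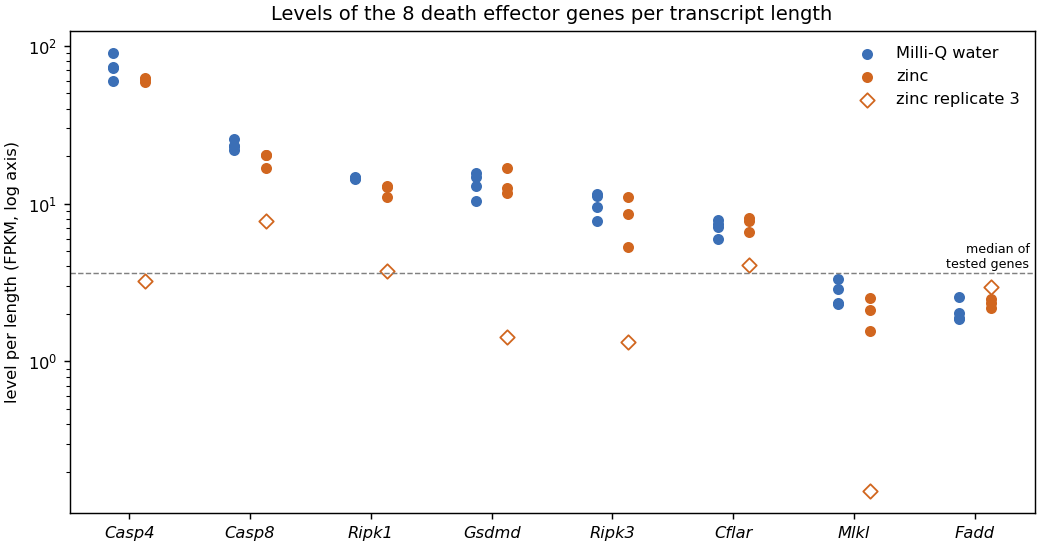
Level per length (FPKM, log axis) of the 8 genes, 1 point per library, with Milli-Q water and zinc libraries marked apart. Casp4 sits highest in the 7 libraries other than zinc replicate 3, at 59.1 to 89.7 FPKM, and Fadd and Mlkl lowest, at 1.55 to 3.33 FPKM.

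No gene differed between zinc and water at an adjusted p under 0.05 (edgeR quasi-likelihood test, Benjamini-Hochberg): 0 of the 8, and 0 of all 10707 genes tested, or 0.0%. At an unadjusted p under 0.05 there were 0 of the 8, against 1092 or 10.2% of all genes. DESeq2 called 4 of 18720 genes (0.0214%) and none of the 8. By direction, 7 of the 8 were lower with zinc, against 49.2% of all genes, with a median log2 fold change of -0.53 against 0.01 over all genes. Without zinc replicate 3, 5 of the 8 were lower, against 49.4% of genes, and the median was -0.25. In bulk RNA, fewer cells of a type and less RNA per cell cannot be told apart. The study describes its PC libraries as each made from a single mouse. The edgeR p-values set the difference between the groups against the spread of the 4 libraries within each group.

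Ripk1 (ENSMUSG00000021408; GRCm39 chromosome 13, 34186141 to 34221130, plus strand) encodes the kinase at the branch between survival and death. It was at 98.7, 97.3, 98.1 and 97.5 CPM in the water libraries and at 74.4, 87.1, 25.3 and 85.2 CPM in zinc libraries 1 to 4. All 4 zinc libraries were below the lowest water library, and the water libraries were tightly grouped at 97.9 ± 0.634 CPM (SD, n = 4). The log2 fold change was -0.53 (SE 0.313, adjusted p = 0.524, edgeR), and -0.25 (SE 0.113, adjusted p = 0.619, edgeR) without zinc replicate 3. Of the stretches of 75 bases in its exons, 9.1% also occur in other genes, and Serpinb6a overlaps it on the opposite strand with 9345 counts over all libraries. How the counting treated strand is unknown, so reads of the pair may not be fully told apart. The share of such stretches was larger for Mlkl (13.3%), Cflar (12.6%) and Fadd (12.3%). It was 2.14% for Casp8, 0.421% for Gsdmd and 0.0% for Ripk3 and Casp4. How reads with several matches were counted is not given, so the levels of genes with large shares may be affected.

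Casp8 (ENSMUSG00000026029; chromosome 1, 58834375 to 58886665, plus strand), the initiator caspase, was at 63.2, 59.7, 70.8 and 63.7 CPM with water and at 46.3, 55.9, 21.3 and 55.2 CPM with zinc. As for Ripk1, the groups did not overlap. These were 2 of the 8 genes, while 3.12% of all genes had every zinc library below every water library. The log2 fold change of Casp8 was -0.53 (SE 0.259, adjusted p = 0.491, edgeR), and -0.29 (SE 0.123, adjusted p = 0.597, edgeR) without zinc replicate 3. Without that library, Ripk1 and Casp8 were the 2 of the 8 genes under an unadjusted threshold of 0.05 in edgeR, Ripk1 only just, against 8.06% of all genes.

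Fadd (ENSMUSG00000031077; chromosome 7, 144131055 to 144136211, minus strand) was the exception in direction. It was at 9.98, 7.92, 7.26 and 7.36 CPM with water and at 9.75, 9.25, 11.6 and 8.55 CPM with zinc. The groups overlapped, through the first water library, and zinc replicate 3 was the highest of the 8 libraries, as it was for 29.8% of all genes. The log2 fold change was 0.26 (SE 0.174, adjusted p = 0.553, edgeR), and 0.17 (SE 0.176) without zinc replicate 3.

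Cflar (ENSMUSG00000026031; chromosome 1, 58750321 to 58798047, plus strand), the neighbour of Casp8 on chromosome 1 and the gene of its inhibitor, was at 55.1, 50.2, 41.8 and 52.2 CPM with water and at 46.1, 57.2, 28.7 and 54.3 CPM with zinc. Zinc replicate 3 alone was below the lowest water library. The log2 fold change was -0.10 (SE 0.208, adjusted p = 0.854, edgeR) and turned to 0.08 without zinc replicate 3. Set against each other per length, Casp8 was 2.93, 3.05, 4.33 and 3.12 times the level of Cflar with water and 2.57, 2.51, 1.90 and 2.61 times with zinc. All 4 zinc ratios were below the lowest water ratio. The size of the ratio depends on the length used, and the order of the libraries does not. Over all 8 libraries Casp8 and Cflar were at 19.9 and 6.87 FPKM, and at 17.7 and 3.33 FPKM with the union of all exons. The mean ratio was 3.36 ± 0.652 (SD, n = 4) against 2.40 ± 0.331, with p = 0.0286 in a two-sided exact permutation test of the log2 ratio, the smallest that 4 against 4 can give. Adjusted over the 5 ratios between partner genes that were computed, this exact p was 0.143. The test was added after the ratios were seen. Groups that do not overlap always give the smallest possible exact p, so it adds nothing to the lack of overlap. Without zinc replicate 3 the zinc ratio was 2.56 ± 0.0509 (SD, n = 3), still below every water library, and the exact p was 0.0571, the smallest that 4 against 3 can give. For the 4 other ratios the groups overlapped.

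The necroptosis pair varied most between libraries, with a CV of 24% for Ripk3 and 23.1% for Mlkl over the 7 libraries other than zinc replicate 3. Ripk3 (ENSMUSG00000022221; chromosome 14, 56022452 to 56026324, minus strand) was at 21.7, 18, 21.0 and 14.6 CPM with water and at 10.1, 16.2, 2.53 and 20.8 CPM with zinc. Zinc replicates 1 and 3 lay below the water range and the other two inside it. The log2 fold change was -0.60 (SE 0.459, adjusted p = 0.598, edgeR), and -0.25 (SE 0.217) without zinc replicate 3. Mlkl (ENSMUSG00000012519; chromosome 8, 112036296 to 112065168, minus strand) was at 9.85, 9.59, 13.9 and 11.9 CPM with water and at 6.47, 10.5, 0.632 and 8.87 CPM with zinc. Only zinc replicate 2 reached the water range. Its log2 fold change, -0.77 (SE 0.543, adjusted p = 0.577, edgeR), was the largest of the 8 and became -0.37 (SE 0.205) without zinc replicate 3. Mlkl had 9 counts in that library.

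In the pyroptosis pair, zinc replicate 3 was far below every other library. Casp4 (ENSMUSG00000033538; chromosome 9, 5308828 to 5336783, plus strand) was at 104, 86.6, 129 and 105 CPM with water and at 90.5, 88.9, 4.63 and 85.2 CPM with zinc. Zinc replicates 1 and 2 lay inside the water range, replicate 4 just below it and replicate 3 far below it. The log2 fold change was -0.66 (SE 0.617, adjusted p = 0.658, edgeR), and -0.26 (SE 0.138) without zinc replicate 3. Gsdmd (ENSMUSG00000022575; chromosome 15, 75733974 to 75739257, plus strand) was at 29.3, 25.7, 20.6 and 30.9 CPM with water and at 23.0, 24.7, 2.81 and 32.9 CPM with zinc. Apart from zinc replicate 3 the groups overlapped, and the log2 fold change of -0.36 (SE 0.508, adjusted p = 0.779, edgeR) became 0.01 (SE 0.169).

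**Figure D2:**
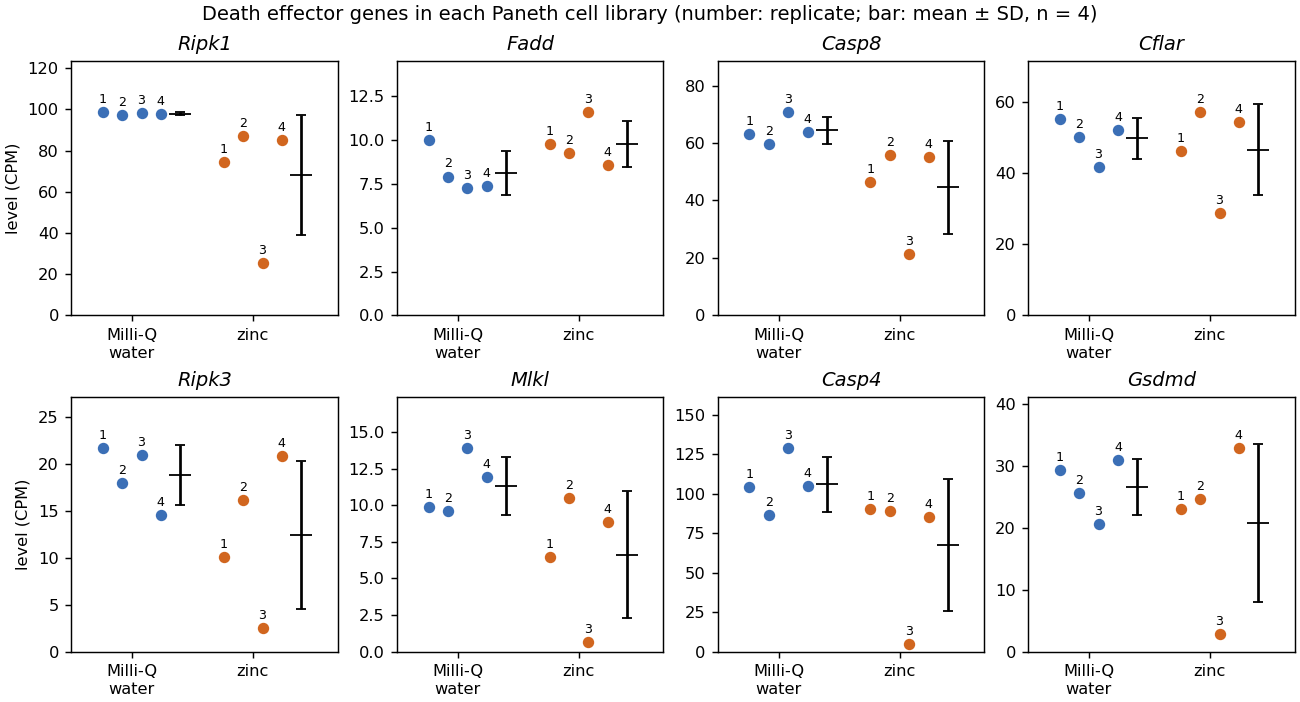
CPM of each of the 8 genes in the 4 Milli-Q water and 4 zinc libraries, 1 point per library. Zinc replicate 3 is the lowest point for 7 genes and the highest for Fadd, at 11.6 CPM.

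**Figure D3:**
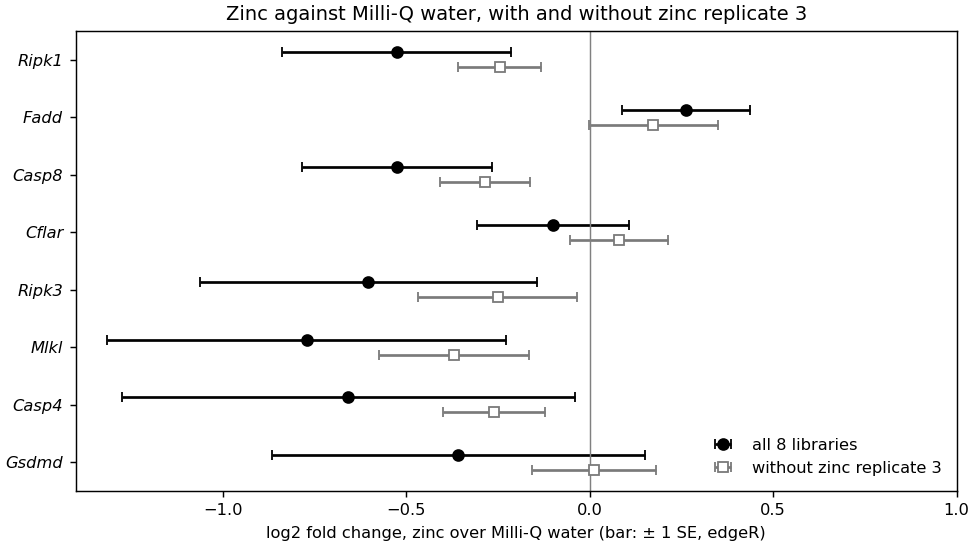
Log2 fold change of zinc over Milli-Q water for the 8 genes, with bars of ± 1 SE from edgeR, for all 8 libraries and without zinc replicate 3. Fold changes run from -0.77 for Mlkl to 0.26 for Fadd with all libraries, and from -0.37 to 0.17 without that library.

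The spread of the zinc group narrowed without zinc replicate 3, for Casp4 from an SD of 41.8 to 2.75 CPM and for Ripk1 from 29.0 to 6.87 CPM. This library was the lowest of the 8 libraries for 7 of the genes, as for 30.0% of all genes, and under 50% of the next lowest library for 6, as for 6.42% of all genes. The median of the other 7 libraries was 19.5 times its level for Casp4, 15.6 times for Mlkl, 9.14 times for Gsdmd and 7.14 times for Ripk3. For Ripk1, Casp8 and Cflar it was 3.84, 2.80 and 1.82 times, and for Fadd 0.738 times. Set against the median of the other 7, the 8 genes had a median log2 difference of -2.35 in this library. The TNF and NF-kB targets were at -3.74 and the interferon targets at -1.74, the enterocyte markers at 2.03, the PC markers at -0.19 and all genes at 0.03. Of the 11 PC markers, 3 were below -1 (Reg3g at -3.161, Sox9 at -1.197 and Pla2g2a at -1.064), against 1143 of all 10707 genes. The mean log2 CPM of the PC markers was 12.545 in this library and 12.785 to 13.614 in the others. Zinc replicate 3 was the highest library for 7 of 8 tested enterocyte markers and 5 of 12 goblet markers. It was also highest for 5 of 9 crypt stem and cycling markers and 3 of 5 enteroendocrine and tuft markers, against 29.8% of all genes. The crypt markers were also raised in zinc replicates 1 and 2 (mean log2 CPM 5.377 and 5.108, against 3.957 to 4.462 with water). So were the goblet markers (8.131 and 7.902, against 7.413 to 7.619 with water). Zinc replicate 4 lay in the water range for both lists (4.16 and 7.475). It had the lowest mean of the enterocyte markers (1.081, against 2.306 to 3.1 with water). Only 3 of 20 immune and stromal markers were tested, with a median of -0.52, and 7 of the 20 were at 0 counts in all libraries. The mean log2 CPM of these 3 tested markers was 2.681 to 3.027 in the 4 zinc libraries and 3.296 to 4.714 with water. The low TNF and interferon targets and the high enterocyte markers moved with the death genes in this 1 library. Both target lists were also lower in zinc replicates 1, 2 and 4 than in every water library, by less. The part of these lists in the result was not tested.

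**Figure D4:**
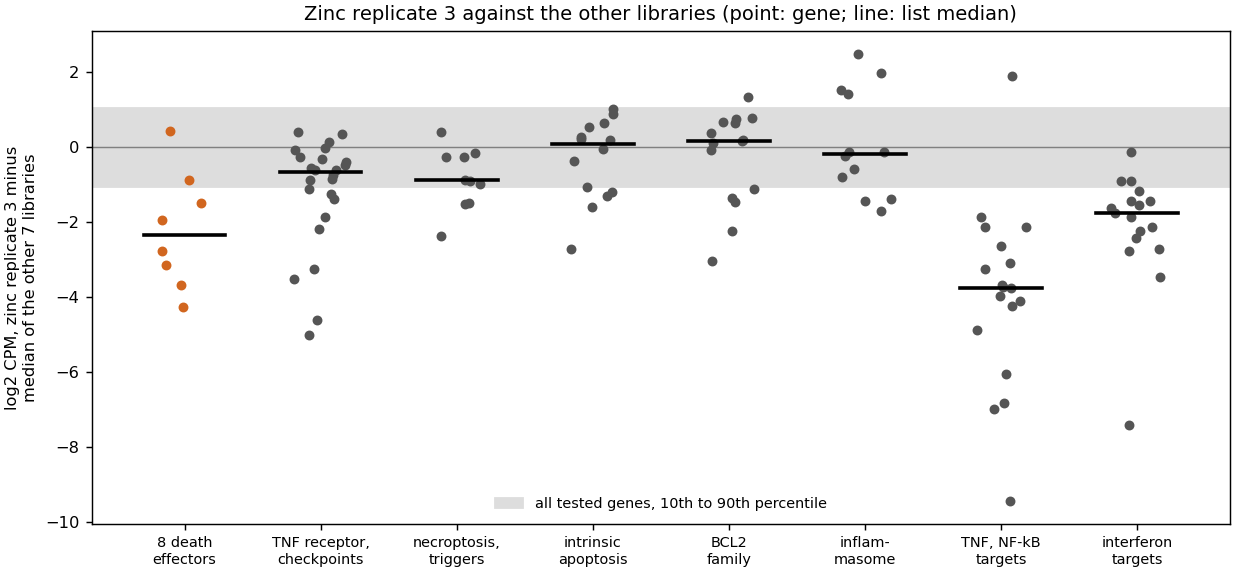
Log2 CPM of zinc replicate 3 minus the median of the other 7 libraries, 1 point per gene and 1 column per gene list, with list medians as lines and the 10th to 90th percentile of all tested genes (-1.053 to 1.049) as a grey band. The 8 death effectors have a median of -2.35, between the TNF and NF-kB targets at -3.74 and the interferon targets at -1.74.

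The genes closest in pattern were named by the smallest root mean square difference of centred log2 CPM over the 8 libraries. For Casp4 this was Birc3 (0.134), for Mlkl Plscr1 (0.174), for Ripk3 Fosl2 (0.142) and for Gsdmd Tapbpl (0.144). Ripk1 was nearest to Slc39a1 (0.082), Casp8 to Cldn7 (0.065), Cflar to Nploc4 (0.070) and Fadd to Cd276 (0.066). For scale, the median difference over all genes was 1.484 for Casp4 and 0.382 for Fadd. Zinc replicate 3 weighs heavily in these matches for the genes far down in it. Casp4 and Birc3 were at -4.244 and -4.595 there in log2 against the median of the other 7 libraries. Shared regulation was not tested.

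The wider death pathways were read from 5 lists of 96 other genes, of which 75 were tested. No gene of any list passed an adjusted p of 0.05, with or without zinc replicate 3. In the list of the TNF receptor complex and its checkpoints, 18 of 24 tested genes were lower with zinc, against 49.2% of all genes. Without zinc replicate 3 these were 14 of 25, against 49.4% of all genes. The median log2 fold change was -0.20 and became -0.03 without zinc replicate 3. Tnfrsf1a, the receptor itself, was well expressed at 72.3 ± 13.5 FPKM (SD, n = 8), beside Tnip1, an A20 partner, at 35.7 ± 14.1 FPKM. Ikbkb, the IKK kinase, was at 22.2 ± 1.32 CPM in water and 16.6 ± 3.71 CPM in zinc libraries (SD, n = 4; adjusted p = 0.485, edgeR), and Tax1bp1 at 159 ± 2.71 and 129 ± 14.7 CPM. The death receptor Fas was at 42.2 ± 8.05 and 26.6 ± 15.4 CPM, with 3.65 CPM in zinc replicate 3. Without that library the log2 fold change of Fas went from -0.67 to -0.29 and that of Ikbkb from -0.42 to -0.27.

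In the intrinsic apoptosis list 9 of 14 tested genes were lower, with a median of -0.17. Without zinc replicate 3 these values were 10 of 14 and -0.08. The effector caspase gene Casp6 was at 13.3 ± 2.67 FPKM (SD, n = 8). The mitochondrial nuclease Endog was at 1.79 ± 0.519 CPM in water and 3.05 ± 0.532 CPM in zinc libraries (log2 fold change 0.78, adjusted p = 0.485, edgeR), and Dffa, the inhibitor of the apoptotic DNase, at 2.76 ± 0.693 and 4.46 ± 1.59 CPM. Cycs, cytochrome c, was at 15.7 ± 3.20 and 12.4 ± 4.04 CPM, and its log2 fold change of -0.34 became -0.12 without zinc replicate 3. In the BCL2 family 7 of 15 were lower, with a median of 0.05, and without zinc replicate 3 the count was 9 of 15 and the median turned to -0.09. The antiapoptotic gene Bcl2 was at 4.55 ± 1.46 CPM in water and 7.56 ± 1.40 CPM in zinc libraries, with a log2 fold change of 0.72 (adjusted p = 0.485, edgeR) that was 0.80 without zinc replicate 3. Another survival gene of the family, Mcl1, was at 136 ± 4.96 and 96.6 ± 31.7 CPM, and the BH3-only gene Pmaip1 at 10.7 ± 2.73 and 7.75 ± 2.31 CPM. Leaving out zinc replicate 3 took the log2 fold change of Mcl1 from -0.50 to -0.28 and that of Pmaip1 from -0.47 to -0.28. Bak1, a pore former of the outer mitochondrial membrane, was at 19.5 ± 4.89 FPKM.

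The inflammasome list was the most incomplete, with 12 of 26 genes tested. Nlrp3, Gsdmc, Mefv and Il1a had 0 counts in all libraries and Il1b had 2, while Nlrc4 (19.2 ± 3.75 FPKM) and Ninj1 (55.7 ± 14.4 FPKM), the membrane rupture protein, were well expressed. Of the 12 tested genes 8 were lower, with and without zinc replicate 3, and the median of -0.08 was -0.03 without it. The spread was wide: the sensor Aim2 was at 2.81 ± 0.939 CPM in water and 1.07 ± 0.476 CPM in zinc libraries (log2 fold change -1.37, adjusted p = 0.485, edgeR; -1.41 without zinc replicate 3). Nlrp6, another sensor, was at 2.75 ± 0.613 and 9.46 ± 6.02 CPM, with 17.0 CPM in zinc replicate 3 and a log2 fold change of 1.77 that was 1.33 without it, and Naip1 at 0.821 ± 0.178 and 1.90 ± 1.24 CPM. In the necroptosis list 7 of 10 were lower, with a median of -0.15. Without zinc replicate 3 these values were 4 of 10 and 0.04. Zbp1, the nucleic acid sensor that can engage RIPK3, was at 17.8 ± 4.95 FPKM, and Usp22 at 12.7 ± 1.36 FPKM. Pgam5 was at 16.4 ± 2.49 CPM in water and 14.3 ± 1.13 CPM in zinc libraries, and Eif2ak2, the RNA-activated kinase PKR, at a mean of 31.7 and 23.5 CPM (log2 fold change -0.44, SE 0.278, and -0.19 without zinc replicate 3). Mycbp2, a ubiquitin ligase, was at 26.8 ± 5.01 and 43.7 ± 4.06 CPM (log2 fold change 0.70, adjusted p = 0.485, edgeR).

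**Figure D5:**
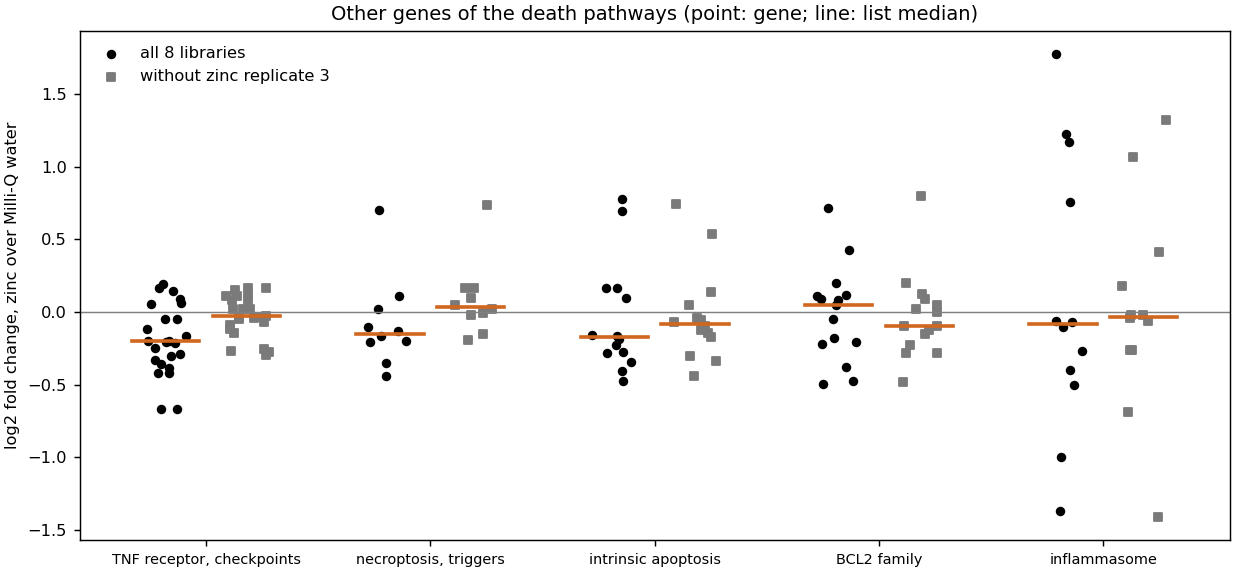
Log2 fold change of zinc over Milli-Q water for the tested genes of 5 death-pathway lists, 1 point per gene, with the list median as a line, for all 8 libraries and without zinc replicate 3. The medians lie between -0.20 and 0.05 with all libraries, and none of the genes passed the threshold.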

How the data were processed

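Per the labels, PCs were sorted from the small intestine of mice on Milli-Q or zinc water, RNA was isolated with an Aurum kit and libraries were made with a TruSeq stranded mRNA kit. The submitters' processing notes name FastQC 0.12.0, STAR 2.7.10a, DESeq2 and the mm39 build. The counter, the annotation release, the strand setting and the treatment of reads with several matches are not given in the sources used here. The deposited values are raw read counts per Ensembl gene, and 54749 of 55414 identifiers matched GENCODE M39 on GRCm39, which gave symbols, coordinates and lengths (unmatched identifiers held 0.00443% of counts).

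The counts were tested with edgeR 4.0.16 in R 4.3.3 (quasi-likelihood F-test, TMM factors, filterByExpr, Benjamini-Hochberg over all genes tested, threshold 0.05), with 4 libraries in each group. CPM are on TMM-scaled library sizes, log2 CPM used a prior count of 2, and FPKM were derived from CPM. DESeq2 1.42.0, limma 3.58.1, other scalings and filters, the replicate number as a block and leaving out each library were alternatives. Ratios between partner genes were tested on the log2 scale by an exact permutation test, which was added after their values were seen. The fit was tested on simulated data. In all 28 pairs of libraries the counts differed beyond sampling noise. Same-numbered water and zinc libraries did not deviate together (r of -0.0275 to 0.0266), so the numbers were not taken to pair them.

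The named genes were the 8 effectors, in each pathway list the 3 tested genes of smallest p and the 2 of highest FPKM, and for each effector the 1 gene of most similar pattern; 1 gene named by this rule is not reported here. Genes at or near 0, Alpi, Anpep, Icam1 and Nfkbia were picked with their values in view. The 8 genes and all lists were chosen with earlier results of these data known. Intervals and limits from counts cover counting error only.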

Additional observations from a re-analysis of the deposited data

Results flagged for a closer look

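In 26 groups of 4 libraries (the 8 genes and the 5 list means, in water and in zinc), the lowest or highest library was compared with the other 3 on log2 CPM. In 5 groups the gap, as a share of the range, was above Dixon's 95% critical value. Chance gives about 1.3 if the 26 groups are independent, which groups that share libraries are not. All 5 were zinc replicate 3, known from an earlier analysis to have low TNF targets. The 5 flags therefore describe 1 library and are not separate evidence. It was far below the other zinc libraries for Ripk1 (log2 CPM 4.672 against 6.22 to 6.448), Casp4 (2.259 against 6.415 to 6.503) and Gsdmd (1.566 against 4.531 to 5.047). The same held for the mean of the TNF receptor and checkpoint genes (3.923 against 5.058 to 5.168) and the mean of the necroptosis genes (4.034 against 4.893 to 4.967). The gap was 0.818 of the range for Mlkl and 0.803 for Casp8, just under that limit.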

How the results depend on the processing

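None of the 8 genes and none of the 75 tested pathway genes passed the threshold under any alternative run, and the smallest adjusted p of the 8 ran from 0.269 (without zinc replicate 4) to 0.855. With the replicate number as a block (replicate block), 0 of the 8 were called, their median log2 fold change was -0.66 and 802 genes had an unadjusted p under 0.05, against 1092 without it; the numbers do not pair the libraries. Of 390 alternative log2 fold changes of 23 genes, 387 kept their direction. The exceptions were Cflar, at 0.0275 with limma-voom and sample weights and between -0.22 and 0.0793 when single libraries were left out, and Gsdmd, between -0.67 and 0.0129 when single libraries were left out, the positive value of each among these arising without zinc replicate 3. Leaving out that library also took the median of the 8 from -0.53 to -0.25. Pathway genes under an unadjusted p of 0.05 numbered 8 of 75 (10.7%, against 10.2% of all genes). They were 16 of 76 without zinc replicate 4 (21.1% against 17.9%), 4 of 76 without water replicate 2 or zinc replicate 2 (5.26% in both, against 1026 of 10858 and 1084 of 10823 genes), and 5 of 76 without water replicate 3 (6.58% against 5.86%). Without a filter they were 14 of 88 (15.9% against 9.13%) and with DESeq2 11 of 88 (12.5% against 6.87%). With the replicate block they were 8 of 75 (10.7% against 7.49%). Other scalings moved the median of all genes by at most 0.05 in log2. Levels of Ripk1, Cflar and Casp4 fell to 7.55, 3.33 and 16.5 FPKM with the union of exons as the length, an alternative chosen after seeing the data. Mlkl with 9 counts in 1 library, and 4 libraries a group with a common biological coefficient of variation of 0.269, limit what the comparison can show.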
